A study of Drosophila melanogaster with 12 samples.

Results

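The genes described here are polo, matrimony (mtrm), ial, aur and BubR1, which encode kinases and regulators of the meiotic spindle and of its checkpoint. They were chosen by name, with earlier results of these data known, and all 5 had a record among the 5421 records of the table. The study sequenced ribosome-depleted RNA of fly (Drosophila melanogaster) oocytes and eggs, with libraries whose stated kit does not mark the strand. It held 12 libraries, 2 from each of 6 groups, which the labels call biological replicates. The wild type groups were w1118 flies, and the mutant groups carried wispKG5287, which the labels name a wispy knockout and a null allele. For each genotype there were immature oocytes (oogenesis stages 9 to 10), mature oocytes (stage 14) and activated eggs aged 0 to 1 h. Per the labels' protocols, oocytes were dissected by hand from females aged 3 to 4 days. The eggs were unfertilized and were collected at 25 °C from virgin females mated to sterile sons of tud1 mothers. The protocol names w1118 females for the eggs and does not describe the mutant egg collection separately.

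Polo is a serine/threonine kinase that acts in entry into M phase, spindle assembly and chromosome segregation. Matrimony binds Polo and inhibits it, and in fly oocytes it holds Polo back during the long prophase arrest. The gene ial encodes Aurora B, the kinase of the chromosomal passenger complex at centromeres and the central spindle. The gene aur encodes Aurora A, which works at spindle poles, and BubR1 encodes a checkpoint kinase that holds the anaphase-promoting complex back until chromosomes are attached. A fly oocyte stops in metaphase of the meiosis I spindle at maturity and completes meiosis when the egg is activated. Transcription is largely silent in the late oocyte, which relies on stored mRNA. The gene wispy (wisp) encodes a poly(A) polymerase of the egg cytoplasm, which extends the poly(A) tails of stored maternal mRNAs.

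The values are the authors' normalised read counts, and their sums per library ranged from 11081267 to 14089899. Sequencing depth is unknown. The targeted gene wisp had a mean of 8767 ± 1351 (SD, n = 2) in wild type mature oocytes, while mutant ones held 254 ± 6.87 (SD, n = 2). Its log2 difference was -5.10 there (limma adjusted p = 0.00294), -5.35 in eggs (adjusted p = 0.00222) and -3.84 in immature oocytes, where it missed the threshold (adjusted p = 0.0676). Of 18 germline and oocyte markers 17 had a record, and their summed level ranged from 109366 to 174072 per library. None of 18 follicle cell markers had a record, so the share of follicle cells was not measured here. The 2 replicates of each immature group differed from each other. Over all records, the log2 values of the wild type immature replicates gave r = 0.828 with each other. Replicate 1 gave 0.973 and 0.967 with the mature libraries of its genotype, and replicate 2 gave 0.855 and 0.81. In the mutant the same values were 0.918 and 0.912 for immature replicate 1, and 0.785 and 0.758 for replicate 2. Replicate 2 of the immature groups gave 0.977 between the genotypes. In immature oocytes 1117 records differed by at least 2-fold between the wild type replicates and 931 between the mutant replicates, against 9 and 7 in mature oocytes. Levels of the 5 genes are given for each library.

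All positions are in dm6. The gene polo lies on chromosome 3L, 20309654 to 20313466, on the plus strand, with 2 annotated transcripts of 2980 and 2324 nt. Their 3′ untranslated regions (UTRs) are 593 and 330 nt long, and the table's single record does not tell the transcripts apart. The gene mtrm lies on 3L, 8413012 to 8414103, plus strand, and has 1 exon of 1092 nt. It sits inside the gene Exo70 on the same strand, with 0 nt of shared exon. The gene ial (now named aurB) lies on 2L, 10856797 to 10858094, minus strand, with 3 exons, a transcript of 1183 nt and a short 3′ UTR of 76 nt. The gene aur (now named aurA) lies on 3R, 11963124 to 11964826, plus strand, with 3 exons and a transcript of 1577 nt. Its exons overlap those of CG12213 on the other strand by 153 nt. The sources used here do not state that reads were counted by strand, so reads in that stretch cannot be told apart. BubR1 lies on 2R, 5969099 to 5974385, minus strand, with 5 exons and the longest of these transcripts, 4626 nt. The Ensembl gene models used here give 1 transcript each for mtrm, ial, aur and BubR1.

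The members differed widely in level. Per 1000 nt of transcript, group means of the normalised read count were highest for mtrm, from 4474 to 6412, and next for polo, from 1649 to 3132. With the shorter polo transcript as its length, polo ranged from 2115 to 4017 and was still below mtrm in each group. Group means of aur ranged from 636 to 878 per 1000 nt, those of ial from 349 to 766 and those of BubR1 from 250 to 717. In total normalised read count, the means of polo and mtrm over all libraries were above 95.4% and 94.1% of records, and that of ial was above 27.9%. Over the 12 libraries the highest value was 3.7 times the lowest for BubR1, 2.65 times for ial, 2.36 times for polo, 1.75 times for mtrm and 1.66 times for aur. The median of this ratio over all records was 2.51.

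**Figure D1:**
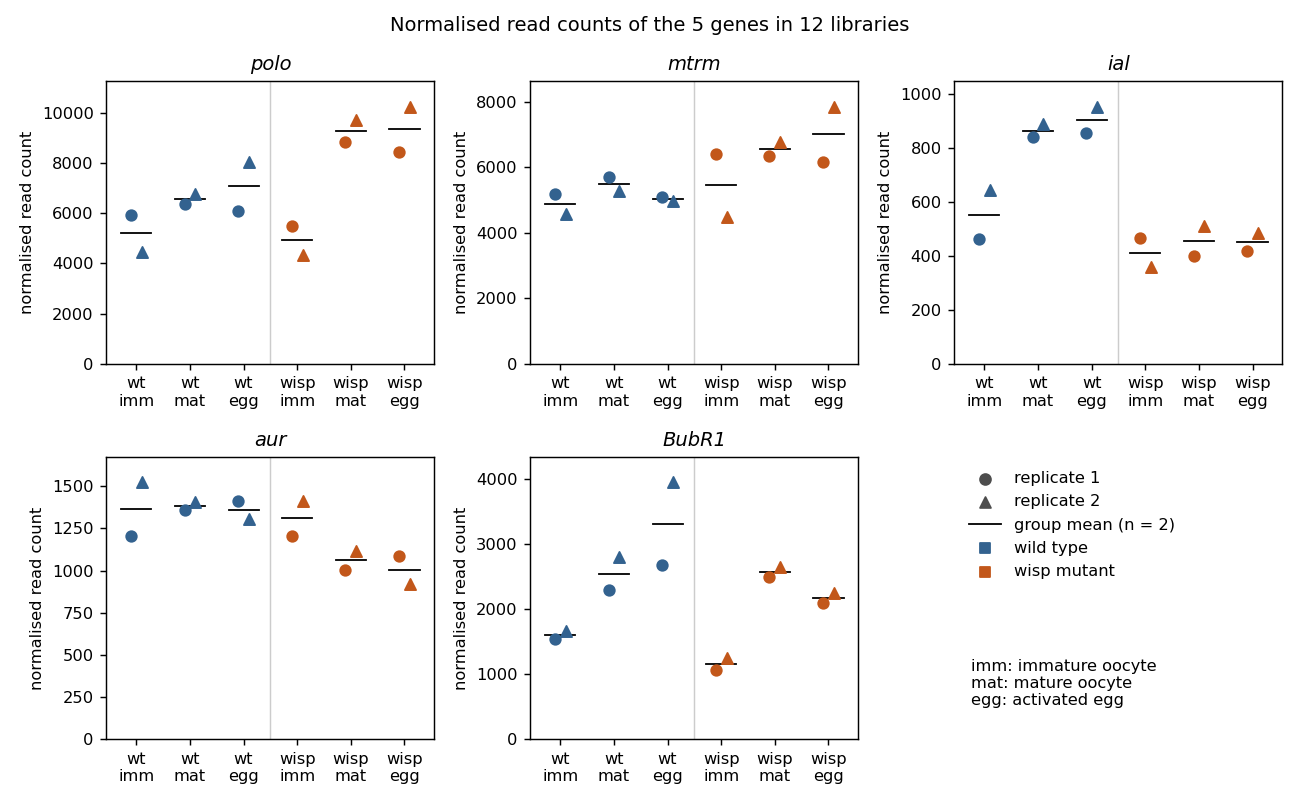
Normalised read count (vertical axes, from 0) of each of the 5 genes in 12 libraries, with the 6 groups on the horizontal axes; circles are replicate 1, triangles replicate 2 and bars the means of 2. In mutant mature oocytes and eggs ial lies between 400 and 511, below the wild type values of 841 to 954, while polo lies above wild type at both stages.

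Differences were tested with limma on log2(value + 1) over all 5421 records, with 6 group means in 1 fit, and genes whose Benjamini-Hochberg adjusted p was under 0.05 were called. Comparisons of mutant with wild type ask whether levels change when the poly(A) polymerase is missing. In mature oocytes 1 of the 5 genes was called lower and 0 higher, while 9.37% of all records were called lower and 0.683% higher, 10.1% in all. In activated eggs 1 of 5 was called lower and 0 higher, against 17.7% and 7.30% of all records. In immature oocytes 0 of 5 were called, against 0.111% of all records (0.0369% higher and 0.0738% lower). The lower gene was ial at both stages, and 7.12% of all records were called lower at both. From immature to mature oocytes 2 of 5 were called higher in the mutant, polo and BubR1, where 1.68% of all records were called higher and 11.4% lower. The same step in wild type gave 0 of 5 and 0% of all records called, with 522 records at an unadjusted p under 0.05. Egg activation gave 0 of 5 in either genotype, against 0.0553% of all records in wild type and 0.0184% in the mutant. The difference between genotypes in a stage step was called for 0 of 5 genes, where it was called for 1.03% of all records for maturation and 0% for activation (limma, 646 and 444 records at an unadjusted p under 0.05). With 2 libraries per group the p-values rest on the spread pooled over the 6 groups, and that spread was unequal. The median absolute log2 difference between replicates was 0.467 (wild type) and 0.35 (mutant) in immature oocytes. It was 0.111 and 0.149 in mature oocytes, and 0.263 and 0.404 in eggs. A pooled spread can thus be too wide for comparisons of mature oocytes and too narrow for those with immature ones.

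**Figure D2:**
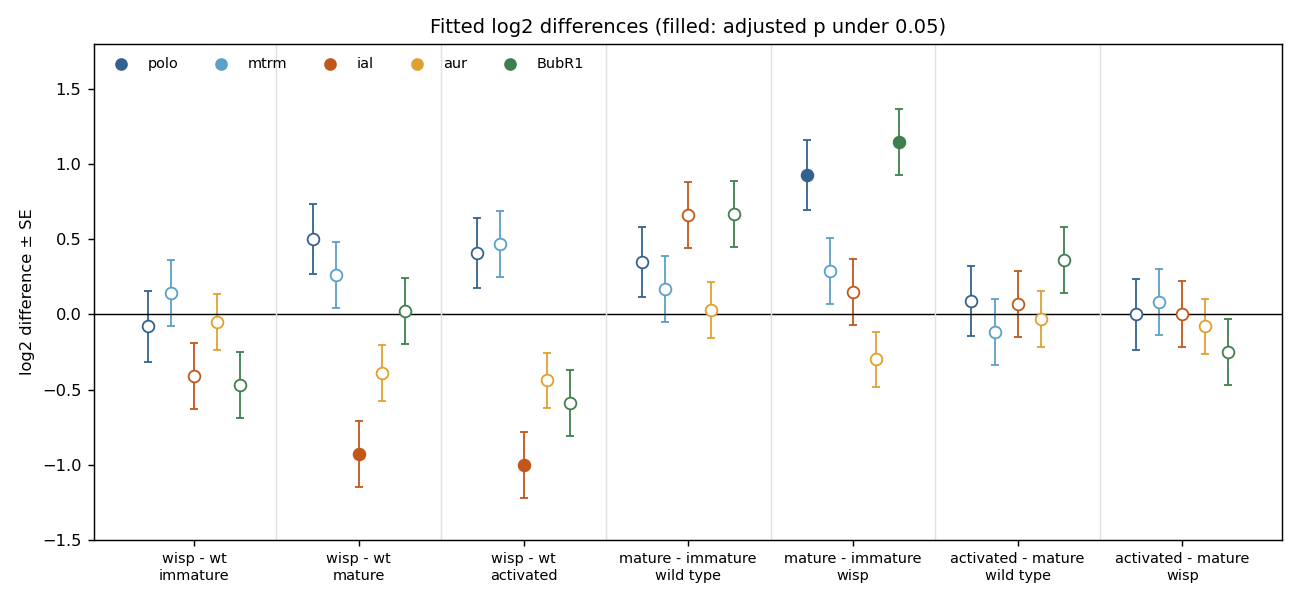
Fitted log2 difference (vertical axis, ± SE) of the 5 genes in 7 comparisons (horizontal axis); filled points have an adjusted p under 0.05 in limma. Filled points are ial in mature oocytes (-0.93) and eggs (-1.0) of the mutant against wild type, and polo (0.93) and BubR1 (1.15) at maturation in the mutant.

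The Aurora B gene ial was about 0.5 times its wild type level in mutant mature oocytes and eggs. In wild type mature oocytes its normalised read count was 841 and 889 in the 2 replicates, and in the mutant 400 and 511. In activated eggs it was 857 and 954 in wild type against 420 and 487 in the mutant. Every mutant library was below every wild type library at these stages. The log2 difference was -0.93 (SE 0.219, limma adjusted p = 0.031) in mature oocytes and -1.0 (SE 0.219, limma adjusted p = 0.0158) in eggs. Taken within replicate numbers 1 and 2, it was -1.07 and -0.80 in mature oocytes and -1.03 and -0.97 in eggs. No source used here describes the normalisation, so the amount of ial RNA per oocyte or egg was not measured. The call in mature oocytes was lost without any single one of the 4 libraries, where the log2 difference lay between -1.11 and -0.76 and the limma adjusted p between 0.0738 and 0.249. In eggs it was lost without wild type replicate 2 (-0.92, adjusted p = 0.112) and without mutant replicate 1 (-0.89, adjusted p = 0.0628). Quantile normalisation ended both calls (-0.72, limma adjusted p = 0.265, and -0.78, limma adjusted p = 0.0909). Keeping only records whose mean reached 500 ended the call in mature oocytes (limma adjusted p = 0.0528). Both calls held with median-of-ratios scaling (-0.87 and -0.79) and with the trend over transcript length removed (-0.86 and -1.33). They also held with only the groups compared in the fit (limma adjusted p = 0.000814 in mature oocytes and 0.0487 in eggs).

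By stage, no difference between the genotypes in the course of ial was called. Immature oocytes held 462 and 644 in wild type and 465 and 360 in the mutant, so the genotypes overlapped (log2 difference -0.41, 95% interval -0.92 to 0.09). From these levels to mature oocytes the log2 difference was 0.66 (95% interval 0.16 to 1.17, limma adjusted p = 0.422) in wild type, with both mature values above both immature values. It was 0.15 (95% interval -0.36 to 0.65) in the mutant, where the groups overlapped. The genotype difference in this step was -0.52 (95% interval -1.23 to 0.19, limma adjusted p = 0.68). At activation the log2 difference was 0.07 in wild type and 0.00 in the mutant. In the order of the 6 groups the 3 mutant groups were lowest and overlapped each other, wild type immature oocytes followed and overlapped the mutant mature oocytes, and the wild type mature oocytes and eggs stood above and overlapped.

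The Aurora A gene aur was also lower in each mutant library than in the wild type libraries of mature oocytes and eggs, by a smaller amount that missed the threshold. In mature oocytes its normalised read count was 1360 and 1408 in wild type and 1005 and 1116 in the mutant. In eggs it was 1411 and 1306 against 1087 and 919. The log2 difference was -0.39 (95% interval -0.81 to 0.04, limma adjusted p = 0.276) in mature oocytes and -0.44 (95% interval -0.86 to -0.02, limma adjusted p = 0.115) in eggs. When the fit held just the 4 mature libraries, aur was called lower in mature oocytes (limma adjusted p = 0.0226). With a replicate block within each stage it was called lower in eggs. In immature oocytes wild type held 1202 and 1522 and the mutant 1206 and 1413, with a log2 difference of -0.05. The wild type level was nearly flat over the stages, with group means of 1362, 1384 and 1359. In the mutant the means were 1309, 1061 and 1003, and both mature values were below both immature values (log2 difference -0.30, 95% interval -0.72 to 0.12). CG12213, whose exons overlap those of aur, had 884 and 996 in wild type and 963 and 1103 in mutant mature oocytes. In eggs CG12213 had 916 and 1233 in wild type and 840 and 1295 in the mutant, so its genotypes overlapped at both stages. Whether reads of the shared stretch bear on aur was not tested.

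Set against aur in the same library and per transcript length, ial had a ratio of 0.824 and 0.841 in wild type mature oocytes and 0.81 and 0.974 in wild type eggs. In the mutant the ratios were 0.531 and 0.611 in mature oocytes and 0.516 and 0.706 in eggs, below each of those wild type values. In immature oocytes they were 0.512 and 0.564 in wild type and 0.514 and 0.34 in the mutant. In wild type the ratios of mature oocytes and eggs all lay above those of immature oocytes. In the mutant they overlapped each other and lay just above the immature ones, whose higher value was 0.514.

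The kinase gene polo was higher in the mutant than in wild type once oocytes were mature, by an amount that missed the threshold. Its normalised read count was 6365 and 6778 in wild type and 8850 and 9717 in mutant mature oocytes. In eggs it was 6099 and 8057 in wild type and 8429 and 10240 in the mutant. No mutant library at these stages was below a wild type library of the same stage. The log2 difference was 0.50 (95% interval -0.04 to 1.03, limma adjusted p = 0.263) in mature oocytes and 0.41 (95% interval -0.13 to 0.94, limma adjusted p = 0.24) in eggs. When the fit held just the 4 mature libraries, the difference in mature oocytes passed (limma adjusted p = 0.00471).

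In immature oocytes polo held 5923 and 4464 in wild type and 5497 and 4333 in the mutant, with a log2 difference of -0.08. From there it rose in the mutant to mature oocytes, by 0.93 on the log2 scale (SE 0.234, limma adjusted p = 0.0357), and both mature libraries were above both immature ones. In wild type the difference was 0.35 (95% interval -0.18 to 0.89), also with both mature libraries above. The genotype difference in the step was 0.57 (95% interval -0.18 to 1.33, limma adjusted p = 0.651). The mutant rise lost its call without each of the 4 libraries (log2 difference 0.75 to 1.1, limma adjusted p 0.0521 to 0.192). It also lost it with quantile normalisation (adjusted p = 0.0773) and with only those 4 libraries in the fit (adjusted p = 0.0755). The same held with a replicate block over all stages (adjusted p = 0.0659) and with only records whose mean reached 500 (adjusted p = 0.0506). The next groups in the order of levels, mature oocytes and eggs, overlapped within each genotype.

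Matrimony mRNA varied little. In wild type mtrm had a normalised read count of 5193 and 4578 in immature oocytes, 5691 and 5285 in mature oocytes and 5085 and 4981 in eggs. In the mutant it had 6409 and 4481, 6333 and 6785, and 6154 and 7850 at the same stages. The mutant libraries were above the wild type libraries in mature oocytes and in eggs, and immature oocytes overlapped. The log2 difference was 0.26 (95% interval -0.25 to 0.76, limma adjusted p = 0.626) in mature oocytes and 0.47 (95% interval -0.04 to 0.97, limma adjusted p = 0.156) in eggs. In eggs it was 0.09 once the trend over transcript length was removed from each library. At maturation it was 0.17 in wild type and 0.29 in the mutant, and at activation -0.12 and 0.08. Exo70, in which mtrm is nested, had 354 and 419 in mutant and 532 and 596 in wild type mature oocytes, the opposite order from mtrm.

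The ratio of inhibitor to kinase mRNA, mtrm to polo per transcript length, was 2.39 and 2.80 in wild type immature oocytes and 3.18 and 2.82 in mutant ones. It was 2.44 and 2.13 in wild type mature oocytes and 1.95 and 1.91 in mutant ones. In eggs it was 2.28 and 1.69 against 1.99 and 2.09. The mutant ratios in mature oocytes and eggs were all below the mutant ratios in immature oocytes. In wild type neighbouring stages overlapped. In mature oocytes the mutant ratios were below the wild type ratios, and in eggs the genotypes overlapped. In immature oocytes the mutant ratios were the higher ones, but nearly touched those of wild type (2.82 against 2.80). With the shorter polo transcript as its length all these ratios would be lower by the same factor.

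**Figure D3:**
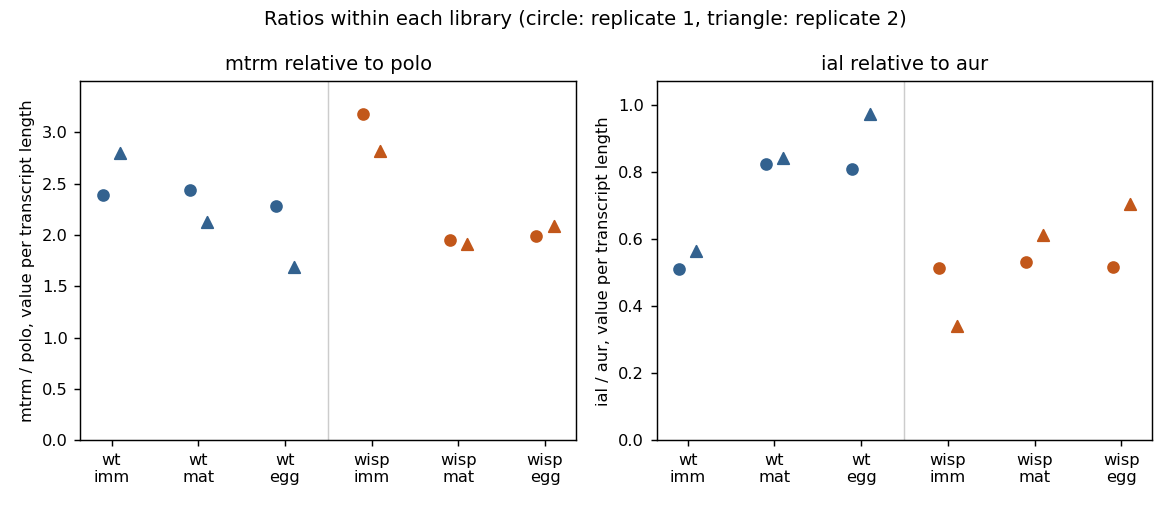
Ratio of values per transcript length (vertical axes, from 0) of mtrm to polo and of ial to aur in each library; circles are replicate 1 and triangles replicate 2, with the 6 groups on the horizontal axes. Ratios of ial to aur in wild type mature oocytes and eggs (0.81 to 0.974) lie above all mutant ratios (0.34 to 0.706).

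The checkpoint gene BubR1 had the widest range of the 5 and was lowest in immature oocytes. Immature oocytes had a normalised read count of 1538 and 1658 in wild type and 1067 and 1248 in the mutant. Mature oocytes had 2295 and 2799 in wild type and 2495 and 2646 in the mutant, so the genotypes overlapped there (log2 difference 0.02, 95% interval -0.48 to 0.52). In activated eggs it was 2684 and 3947 in wild type and 2089 and 2248 in the mutant. Both mutant values were below both wild type values in immature oocytes and in eggs. The log2 difference was -0.47 (95% interval -0.97 to 0.04, limma adjusted p = 0.718) in immature oocytes and -0.59 (95% interval -1.09 to -0.08, limma adjusted p = 0.0839) in eggs. The size of the egg value depended on the wild type library: without replicate 2 the difference was -0.31, and without replicate 1 it was -0.86. With a replicate block within each stage BubR1 was called lower in eggs (limma adjusted p = 0.0155). The egg difference was -0.14 once the trend over transcript length was removed.

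At maturation BubR1 rose in the mutant by 1.15 on the log2 scale (SE 0.22, limma adjusted p = 0.0124). In wild type the difference was 0.67 (95% interval 0.16 to 1.17, limma adjusted p = 0.422), with both mature values above both immature ones. The genotype difference in this step was 0.49 (95% interval -0.22 to 1.2, limma adjusted p = 0.734). The mutant call was lost without mutant immature replicate 1 (1.04, adjusted p = 0.0578), without either mutant mature library (1.2 and 1.11, adjusted p = 0.0839 and 0.0912) and with only the 4 libraries in the fit (adjusted p = 0.056). At activation the difference was 0.36 in wild type and -0.25 in the mutant, and the genotype difference in that step was -0.61 (95% interval -1.32 to 0.11, limma adjusted p = 0.561).

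The 5 genes did not all move one way. In mature oocytes 2 of 5 lay wholly above wild type (polo and mtrm) and 2 wholly below (ial and aur), while 30.2% of all records lay wholly above and 39.9% wholly below. In eggs 2 lay above and 3 below, against 21.4% and 38.9% of all records. In immature oocytes 1 lay below (BubR1) and 0 above, against 7.78% and 15.9%. At maturation 4 of 5 lay above and 0 below in wild type, against 25.9% and 17.4% of all records, and in the mutant 2 lay above (polo and BubR1) and 1 below (aur), against 32.8% and 34.4%. At activation 1 lay below and 0 above in each genotype, mtrm in wild type (25.0% of records below, 18.1% above) and BubR1 in the mutant (24.9% below, 13.7% above). Across the 12 libraries, log2 values of polo and mtrm correlated at 0.782, mtrm and aur at -0.881, polo and aur at -0.796, and ial and BubR1 at 0.634. The remaining 6 of 10 pairs lay between -0.307 and 0.641. The libraries share stages and genotypes, so these values are a description.

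Transcript length moved with the genotype difference in eggs and, less steeply, in immature oocytes, and the members lay differently against it. Of 8 bins of length, the bin from 1037 to 1412 nt, which holds mtrm and ial, had a median log2 difference of 0.25 in eggs, and mtrm was at 0.47 and ial at -1.0. The bin of aur (1413 to 1787 nt) had a median of 0.03, with aur at -0.44. The bin of polo (2720 to 3463 nt) had a median of -0.36, with polo at 0.41. The bin of BubR1 (3464 to 4864 nt) had a median of -0.53, close to its own -0.59. In mature oocytes the bin medians lay between -0.12 and 0.00. In immature oocytes they fell from 0.20 in the shortest to -0.33 in the longest bin, and BubR1 moved there from -0.47 to -0.25 with the length trend removed. With the length trend removed, ial had -1.33 (limma adjusted p = 0.00637) and aur -0.62 (limma adjusted p = 0.0291) in eggs, and both were then called lower. In that fit polo was at 0.6 in eggs and was not called (limma adjusted p = 0.052). The part of length in these differences was not tested further.

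**Figure D4:**
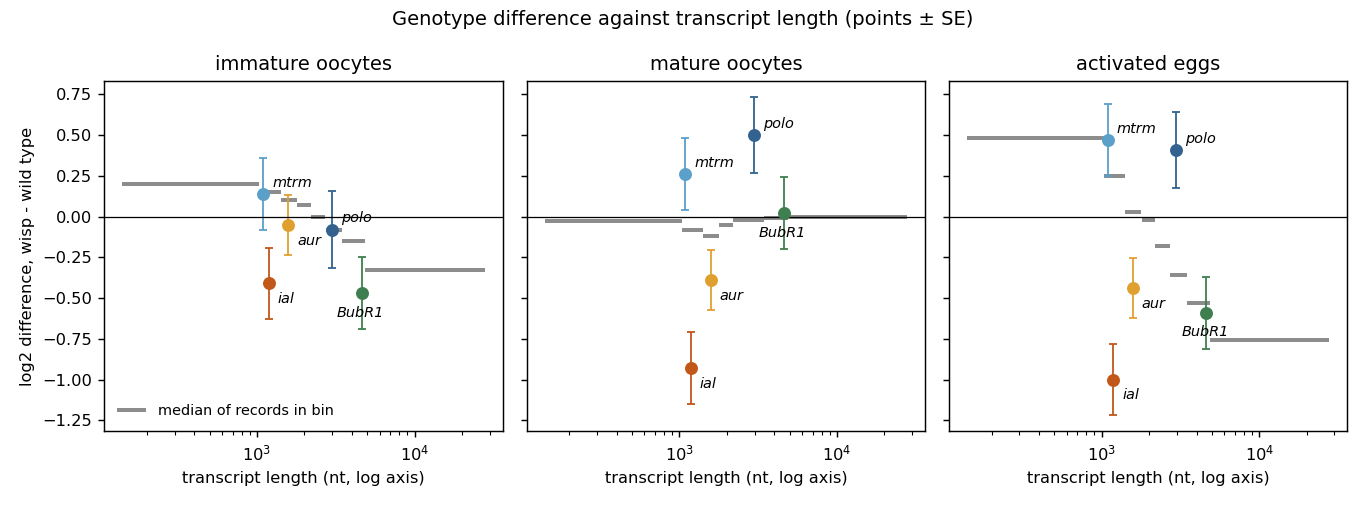
Log2 difference between mutant and wild type (vertical axis) against transcript length (horizontal log axis, nt) at 3 stages; grey lines are medians of all records in 8 length bins and points are the 5 genes ± SE. In eggs ial (-1.0) lies below and polo (0.41) above the medians of their bins (0.25 and -0.36), and BubR1 (-0.59) lies near its own (-0.53).

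Genes that work with these kinases were examined in 5 lists of 61 measured genes. The lists were chosen with earlier results of these data known, so their shares of called genes are a description. In mutant against wild type mature oocytes 1 of 61 was called higher and 0 lower, against 0.683% and 9.37% of all records. It was Grip71, a gamma-tubulin ring protein, at 2187 ± 60.8 (SD, n = 2) against 1118 ± 12.4 (SD, n = 2) for wild type (log2 difference 0.97, limma adjusted p = 0.0314). That call was lost without any single one of the 4 libraries (adjusted p 0.168 to 0.207). List medians lay between -0.06 and 0.10, beside -0.03 over all records. The most abundant members of the lists with none called were near 0 or uncalled: Zw10 0.10 and fzy, an activator of the anaphase-promoting complex, -0.02; feo -0.69 and tum 0.22; gwl, the Greatwall kinase, 0.06 and mts, a phosphatase 2A catalytic subunit, 0.40; cana -0.03 and cal1 0.21. The passenger and central spindle list, to which Aurora B belongs by function, had 0 of its 8 genes called in these mature oocytes. Over all records 10.1% were called there, so 0 of 8 does not set ial apart from this list. In eggs 2 of the 8 were called lower, against 17.7% of all records.

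In activated eggs 8 of 61 list genes were lower in the mutant and 0 higher, which is 13.1% lower, against 17.7% of all records lower and 25.0% called in either direction. Among 9 checkpoint genes rod, of the RZZ kinetochore complex, was lower (from 3928 ± 629 to 1539 ± 234, SD, n = 2, log2 difference -1.35), and so was ald, the Mps1 kinase (-0.54). Of 8 passenger and central spindle genes feo, the PRC1-like microtubule bundler, was lower (-1.14) and so was the kinesin Klp3A (-1.0). Of 12 kinetochore genes Ndc80 was lower (-0.66), and of 20 spindle pole and motor genes Grip128 (-1.07), asp (-0.92) and the kinesin-5 Klp61F (-0.71) were. None of the 12 genes around Polo and Greatwall was called, with gwl at -0.50 and mts at 0.66. These 8 calls had limma adjusted p between 0.0104 and 0.0474. List medians were -0.28 for the checkpoint, -0.17 for passenger and central spindle, -0.10 for Polo and Greatwall, 0.06 for kinetochore and -0.28 for spindle pole and motor genes, beside -0.16 over all records. With the length trend removed rod (-0.72), ald (-0.55), Klp3A (-0.57), Grip128 (-0.78), asp (-0.31) and Klp61F (-0.37) were not called, while feo (-1.08) and Ndc80 (-0.66) were.

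At maturation in the mutant, where polo and BubR1 rose, 8 of 61 list genes rose and 0 fell, which is 13.1%, against 1.68% of all records higher and 13.1% called in either direction. They were bora, an activator of Aurora A (435 ± 65.8 to 1134 ± 260, SD, n = 2, log2 difference 1.37), and cid, the centromeric histone (369 ± 63.7 to 771 ± 85.9, SD, n = 2, 1.07). Of the spindle pole and motor list Klp61F (1.13), Grip91 (1.11), the minus-end kinesin ncd (0.86) and mei-38 (0.65) rose. Of the passenger and central spindle list tum, a centralspindlin subunit (0.98), and borr, the Borealin subunit beside Aurora B (0.67), rose. Limma adjusted p of these 8 lay between 0.0103 and 0.0469. No checkpoint gene was called, with Zw10 at 0.45 and fzy at 0.41. List medians were 1.2 for kinetochore, 0.96 for Polo and Greatwall, 0.78 for passenger and central spindle, 0.57 for spindle pole and motor and 0.34 for checkpoint genes, beside 0.05 over all records. In wild type the same medians were 0.95, 0.63, 0.69, 0.26 and 0.35, beside 0.14 over all records, with 0 of 61 called. This step and the comparison of mature genotypes share the mutant mature libraries, and 16 of the 17 list calls were lost when a fit held only the groups compared. With 1 library left out, between 0 and 4 of the 8 egg calls held (0 without replicate 2 of either genotype), and between 0 and 3 of the 8 maturation calls.

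**Figure D5:**
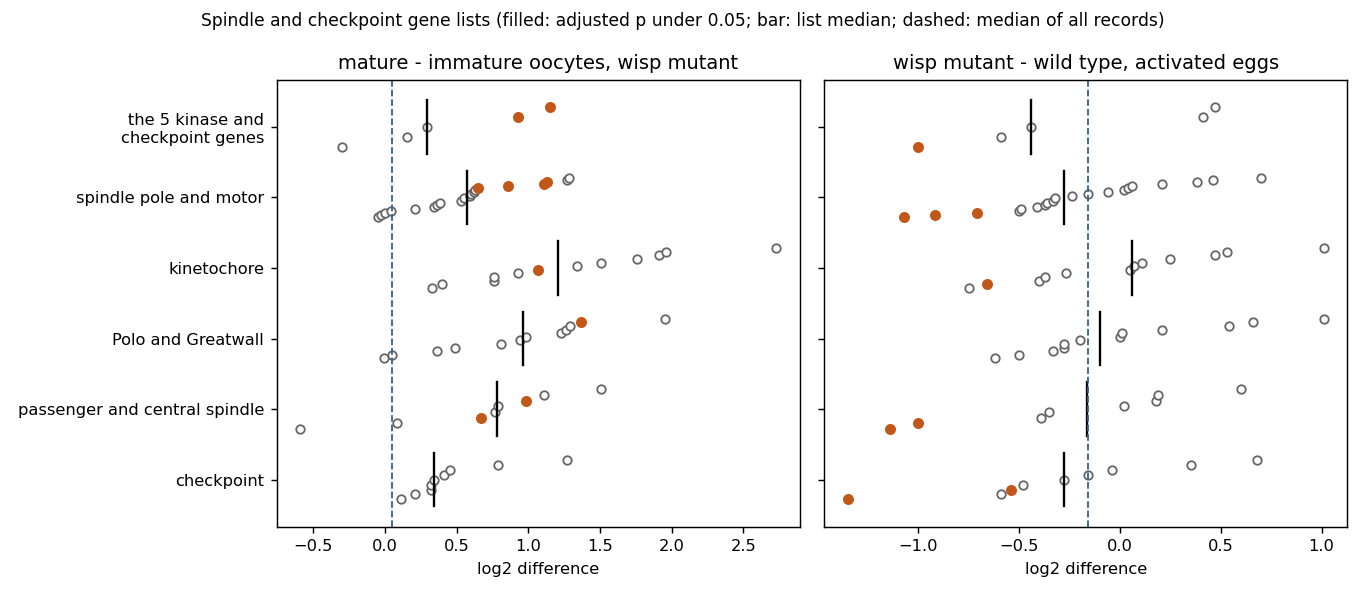
Log2 differences (horizontal axes) of the genes of 5 lists and of the 5 kinase and checkpoint genes (rows) at maturation in the mutant and between genotypes in eggs; filled points have an adjusted p under 0.05, black bars are list medians and the dashed line is the median of all records. At maturation 8 list genes are filled, all above 0, and in eggs 8 are filled, all below 0.

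Genes with the most similar course were sought for each member by the Pearson correlation of log2 values over the 12 libraries. They were CdsA (0.968), MED19 (0.96) and cpb (0.959) for polo, and FKBP59 (0.963), Uch-L5 (0.957) and Su(var)205 (0.956) for mtrm. For ial they were Orc5 (0.942), M1BP (0.928) and Ndc80 (0.928), for aur Coq2 (0.983), rtet (0.976) and Mul1 (0.975), and for BubR1 mars (0.99), Klp67A (0.987) and rig (0.984). A correlation of at least 0.9 was shared with 22 records for ial, 45 for mtrm, 62 for BubR1, 113 for polo and 386 for aur.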

How the data were processed

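Per the file headers, the deposited values are normalised read counts of transcript records in 12 libraries (unit: signal, at least 0). STAR 2.4.2a, RSEM 1.2.25, HTSeq and dm6 are named, without roles, in the submitters' processing notes, and no source used here describes the normalisation. Of 5422 records 1 identical duplicate was removed. The lowest value was 100.07, so losses below 100 are not seen. No step gave whole reads (at best 17% of the 400 lowest values per library were whole within 0.05, where chance gives 10%), so depth is unknown. The table has 0 ERCC spike-in rows.

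Values were analysed as log2(value + 1) with limma 3.58.1 in R 4.3.3 (intensity trend, 6 group means, 6 residual and 2.43 prior degrees of freedom, 9 contrasts, no block), with Benjamini-Hochberg adjustment over all records; fold changes are on that scale. Simulated data with seeded changes were used to test the fit. They gave each gene the same spread in all groups and no deviations shared between libraries. They therefore do not show how the fit handles the unequal spread and shared deviations of these data. Gene models are from Ensembl (dm6 coordinates); lengths are of canonical transcripts and were found for 5398 records. The 5 genes and the lists were chosen with earlier results of these data known. Named list genes are the called members and, with none called, the 2 most abundant; likeness names the 3 records with the highest correlation, leaving out records named by CG number. Replicate numbers come from the labels, and no source used here ties them to a shared batch. No sequences were used.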

Additional observations from a re-analysis of the deposited data

How the results depend on the processing

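Of 655 refits of a member's difference under alternatives, 625 kept their side of the threshold, 21 lost a call, 6 gained one and 3 turned in direction. Most of the 625 were uncalled values that stayed uncalled. Each called difference had 14 refits. The call held in 8 of them for ial in mature oocytes and in 11 for ial in eggs. At maturation in the mutant it held in 6 for polo and in 10 for BubR1. Among the 625 are 46 with another sign than the reported value, none called, where the value before or after lay within 0.1 of 0. The 3 were mtrm in immature oocytes without mutant replicate 1 (-0.12, range over libraries left out -0.12 to 0.39), its genotype difference at maturation without mutant immature replicate 2 (-0.14, range -0.14 to 0.38) and at activation with the length trend removed (-0.24). None of these was called. In mature oocytes 1 member was called lower; it was 0 with only records of mean 500 or more and with quantile normalisation, 2 (and 1 higher, polo) with only the groups compared, and 0 to 0 without a library. In eggs 1 was called lower; it was 0 with quantile normalisation, 2 with the length trend removed, and 0 to 2 without a library. At maturation in the mutant 2 were called higher; it was 1 with that filter or with quantile normalisation, 0 with only the groups compared, and 0 to 1 without a library. Median-of-ratios scaling moved the median of all records in eggs from -0.162 to 0.0446. With it ial was at -0.79, polo at 0.61, mtrm at 0.67, aur at -0.24 and BubR1 at -0.38 there. Pseudocounts of 0.5 and 5 and a fit with no intensity trend changed no member's call. Over all records the calls higher and lower were 37 and 508 in mature oocytes, 396 and 959 in eggs and 91 and 617 at mutant maturation. In that order they were 18 and 195, 278 and 740, and 51 and 252 with the filter, 33 and 345, 566 and 592, and 133 and 538 with median-of-ratios scaling, 7 and 43, 203 and 294, and 35 and 238 with quantile normalisation, 92 and 485, 126 and 729, and 116 and 537 with the length trend removed, and 800 and 1474, 59 and 417, and 19 and 190 with only the groups compared. The causes were not tested. Left-out fits assume that the lone library of a group varies like the others.

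Same-numbered libraries deviated together within a stage (r across records 0.849 in immature, 0.483 in mature and 0.771 in activated groups). Between immature and other stages they deviated oppositely (-0.938 to -0.31). The main fit did not take the numbers as pairs, although the genotypes are compared within a stage, where the deviations were shared. With a replicate block within each stage, 109 records were higher and 158 lower in immature oocytes (2 and 4 without it). In mature oocytes 260 were higher and 1042 lower (37 and 508 without it), and in eggs 1040 and 1869 (396 and 959 without it). With it 3 members were lower in eggs (ial, aur at adjusted p = 0.0366 and BubR1 at 0.0155), and with a replicate block over all stages 1 member, BubR1, rose at maturation in the mutant and polo lost its call (0.93, adjusted p = 0.0659). With immature numbers crossed, chosen after seeing the data, 2 members were called in that step, with 833 records higher and 955 lower, against 91 and 617.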
